A study of Mus musculus with 12 samples.

Results

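A set of 10 genes of lysosomal proteolysis was followed across 4 groups of libraries: the cysteine cathepsins Ctsb, Ctsc, Ctsh, Ctsk, Ctsl, Ctss and Ctsz, the aspartic protease Ctsd, the asparaginyl endopeptidase legumain (Lgmn) and cystatin C (Cst3). They were chosen by gene name, as 10 of the 29428 genes in the table. Polyadenylated RNA was measured by RNA-seq in STHdhQ7 and STHdhQ111 cells, striatal lines from knock-in mice whose huntingtin gene carries 7 or 111 glutamine repeats, STHdhQ111 being the Huntington's disease line. The treated groups, Q7-T and Q111-T, received 100 ng/mL murine interferon gamma (IFNγ) and 5 μg/mL lipopolysaccharide (LPS) over 24 h, and Q7-C and Q111-C were left untreated, with 3 libraries in each group. Both lines are immortalized and carry the repeat in both copies of the gene. Each genotype is represented by 1 line, so repeat length and any other difference between the lines cannot be told apart. The 3 libraries of a group are described as biological replicates, and whether they came from separate cultures is not given in the sources used here, so p-values measure the spread between these libraries, which may be technical.

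The libraries held 57505990 to 96417834 estimated counts. Nos2 and Irf1, genes that IFNγ and LPS induce, rose in both lines, Nos2 by 6.31 (STHdhQ7) and 8.90 (STHdhQ111) on the log2 scale. The lines are described as striatal neuronal, but the synaptic genes Snap25 and Syt1 reached no more than 0.025 TPM (transcript abundance corrected for gene length and library depth) in any library. Of 9 neuronal markers listed, 6 were in the table and 3 could be tested. The summed TPM of the 6 was 22.6 to 27.7 in untreated and 58.7 to 86.3 in treated STHdhQ7 cells, and STHdhQ111 cells had 10.0 to 12.05 untreated and 29.6 to 33.5 treated. Most of the treated sums was Tubb3, a neuronal tubulin gene, which was lower in STHdhQ111 cells than in STHdhQ7 cells and rose with treatment in both lines. Map2 fell with treatment in STHdhQ7 cells (log2 fold change -1.80, edgeR adjusted p = 0.0087) and was higher in Q111-T vs. Q7-T (1.12, edgeR adjusted p = 0.022), and Ppp1r1b did not pass in any comparison. The 6 mesenchymal markers, all in the table and 5 of them tested, summed to 4223 to 4807 TPM in untreated and 3281 to 3703 TPM in treated STHdhQ7 cells, and STHdhQ111 cells had 3528 to 3676 untreated and 1484 to 1599 treated. Of the 5, 2 were higher and 1 lower in Q111-C vs. Q7-C, where 11.1% of all genes tested were higher and 11.6% lower. In Q111-T vs. Q7-T 2 were higher and 3 lower, against 19.8% and 18.7%. With treatment 3 fell in STHdhQ7 and 4 in STHdhQ111 cells, where 5.35% and 18.7% of all genes passed in either direction. Without Q7-T replicate 2, 3 of the 5 were higher in Q111-C vs. Q7-C, against 15.5% of all genes, with Pdgfrb gained (0.56, edgeR adjusted p = 0.027). Then 2 fell in STHdhQ7 cells, against 2.04% of all genes, with Pdgfrb lost (-0.67, edgeR adjusted p = 0.071). The 6 astrocyte markers summed to 1.05 to 1.98 TPM in untreated and 1.33 to 1.85 TPM in treated STHdhQ7 cells, and to 9.01 to 11.1 untreated and 4.16 to 5.24 treated in STHdhQ111 cells, mostly from Slc1a3, while Gfap and Aqp4 stayed at 0.327 TPM or less. Of 2 astrocyte markers tested, Slc1a3 was higher in STHdhQ111 cells untreated and treated (3.18 and 1.22), and Aldh1l1 was lower in untreated ones (-3.56, edgeR adjusted p = 0.046). The part of these markers in the results was not tested. Some libraries stood apart from their groups, by the chi-square per degree of freedom between the counts of 2 replicates. For Q7-T replicate 2 this was 190 and 198, against 15.0 between the other Q7-T libraries. For Q7-C replicate 1 it was 85.5 and 120, against 11.1, and for Q111-T replicate 2 it was 54.3 and 48.0, against 9.57. The library nearest to Q7-T replicate 2, by log2 TPM over 16127 genes, was Q7-C replicate 1 and not one of its own group, whereas each of the other 11 libraries was nearest to a library of its group. For 9 of the 10 genes Q7-T replicate 2 lay outside the range of the other Q7-T libraries, Ctss among them on 4 estimated counts. The share of all genes for which this held was not computed, so the 9 are a description only. Values without Q7-T replicate 2 are given for the 8 genes tested in Q111-T vs. Q7-T and in Q7-T vs. Q7-C. They are also given for counts over other gene lists where leaving it out ended a call or moved a count by 1.5 times or more.

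Cathepsins are proteases of the lysosome, made as inactive precursors that are sorted there and matured at low pH. The cysteine cathepsins divide the work between endopeptidases, which cut inside a chain, and exopeptidases, which trim its ends, and cystatin C is a secreted inhibitor that binds their active sites. Cathepsins B, D and L have been studied as enzymes that break down huntingtin, and cathepsin S and legumain are known for processing antigens in cells that present them on class II molecules.

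The largest fold changes among these genes were between the lines. In untreated cells, transcripts of the exopeptidases Ctsh and Ctsc and of the endopeptidases Ctsl and Ctsb were higher in STHdhQ111 cells, from 1.66-fold for Ctsb to 43.6-fold for Ctsh, and Ctsd was lower. The Ctsd call was lost on the TPM scale (limma adjusted p = 0.19) and without any 1 of 4 of the untreated libraries (edgeR adjusted p 0.055 to 0.077). Of 8 genes expressed at a level that could be tested, 5 passed in Q111-C vs. Q7-C (edgeR adjusted p under 0.05), against a background of 22.7% of all 16127 genes tested. Of these, 4 were higher and 1 was lower, where 11.1% of all genes tested were called higher and 11.6% lower. Ctsc and Ctsh reached the filter of 0.5 TPM in 3 libraries only through STHdhQ111 cells, where they are high, so their place in these counts follows in part from the filter. Of the 6 genes that reached it in both lines, 3 passed, 2 higher and 1 lower. The share passing among all genes that reached it in both lines was not computed. No gene among the 8 passed for the response to IFNγ/LPS in either line. Ctsk and Ctss did not reach 0.5 TPM in 3 libraries and were not tested. In these bulk samples, fewer cells of a type and less RNA per cell cannot be told apart.

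**Figure D1:**
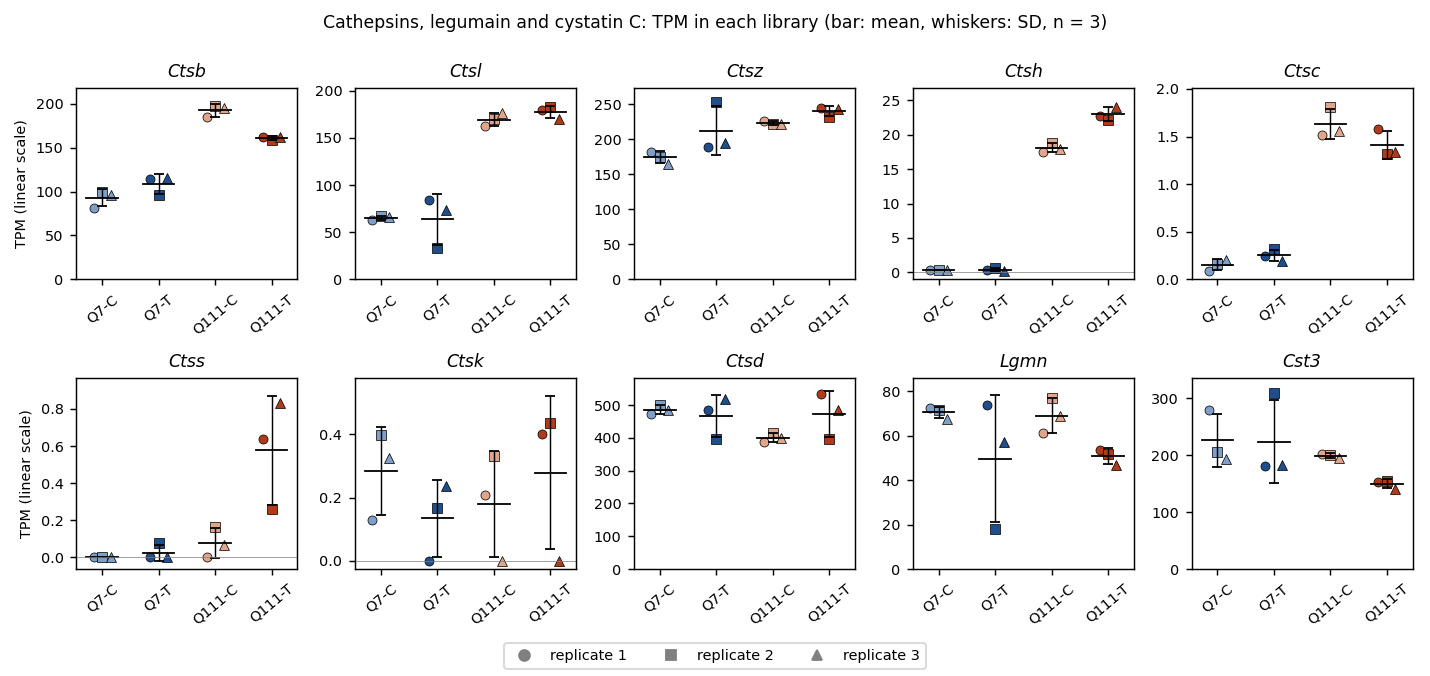
TPM of each gene in each library (y axis, linear, a separate scale per gene) by group (x axis). Symbols stand for replicates, bars for group means and whiskers for the SD of 3 libraries. The Ctsh libraries of STHdhQ111 cells lie between 17.6 and 24.1 TPM and those of STHdhQ7 cells at 0.665 TPM or less.

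Ctsh encodes cathepsin H, an aminopeptidase (ENSMUSG00000032359, GRCm38 chr9:90054152-90076089, plus strand). The untreated libraries were at 0.293, 0.332 and 0.347 TPM in STHdhQ7 cells, while those of STHdhQ111 cells were at 17.6, 18.9 and 18.0 TPM. The treated ones were at 0.323, 0.665 and 0.216 TPM in STHdhQ7 cells, while those of STHdhQ111 cells were at 22.8, 22.1 and 24.1 TPM. Every STHdhQ111 library was above every STHdhQ7 library, and the high value of Q7-T was replicate 2. The log2 fold change was 5.45 ± 0.51 (SE) in Q111-C vs. Q7-C (edgeR adjusted p = 1.5e-05), and 223 of the 16127 genes tested had a higher one. In Q111-T vs. Q7-T the log2 fold change was 5.24 ± 0.50 (edgeR adjusted p = 1.6e-05), and it was 6.22 without Q7-T replicate 2. With limma on log2(TPM + 0.5), + 0.1 and + 1, the log2 fold change was 4.50, 5.43 and 3.85 in untreated and 4.73, 5.63 and 4.11 in treated cells. The larger the value added, the smaller the change of a low gene reads. These values are on the TPM scale, which reads higher for STHdhQ111 cells than the edgeR scale, as set out below. The STHdhQ7 values stand on 48 to 118 estimated counts per library and the STHdhQ111 values on 2471 to 3707.

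Ctsc encodes cathepsin C, a dipeptidyl peptidase that activates serine proteases of immune cell granules (ENSMUSG00000030560, chr7:88278085-88310888, plus strand). Its level was low in all libraries. Libraries of Q7-C gave 0.0888, 0.164 and 0.204 TPM, and those of Q7-T gave 0.246, 0.316 and 0.196 TPM. Libraries of Q111-C gave 1.51, 1.81 and 1.56 TPM, and those of Q111-T gave 1.58, 1.32 and 1.33 TPM. The lines did not overlap, with or without treatment. The log2 fold change was 3.09 ± 0.38 (SE) in untreated cells (edgeR adjusted p = 0.00012) and 1.95 ± 0.36 in treated cells (edgeR adjusted p = 0.0015). Without Q7-T replicate 2 the latter was 2.46. With limma on log2(TPM + 0.5), + 0.1 and + 1 the difference in untreated cells was 1.71, 2.80 and 1.19, and in treated cells 1.34, 2.11 and 0.94.

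Ctsl encodes cathepsin L, an endopeptidase (ENSMUSG00000021477, chr13:64359337-64370890, minus strand). Its level was 62.7, 67.1 and 66.1 TPM in the Q7-C libraries and 162, 170 and 176 TPM in those of Q111-C. The treated libraries of STHdhQ7 cells were at 84.3, 33.2 and 73.2 TPM and those of STHdhQ111 cells at 180, 182 and 170 TPM. The lowest STHdhQ111 library was thus above the highest STHdhQ7 library in both states. The log2 fold change was 1.04 ± 0.18 (SE) in untreated cells (edgeR adjusted p = 0.0014) and 1.16 ± 0.18 in treated cells (edgeR adjusted p = 0.00051), the latter being 1.01 without Q7-T replicate 2. In untreated cells it lay close to the 2-fold limit that defines a DEG (differentially expressed gene) here and was just under it, at 0.996, without Q7-C replicate 3. The gene overlaps Gm49230 on the same strand, whose reads the counting may have split with it.

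Ctsb encodes cathepsin B, which acts both as an endopeptidase and as a carboxydipeptidase (ENSMUSG00000021939, chr14:63122462-63145923, plus strand). Untreated libraries were at 81.7, 100.1 and 96.5 TPM in STHdhQ7 cells and at 184, 198 and 196 TPM in STHdhQ111 cells, with no overlap. The log2 fold change was 0.73 ± 0.15 (SE), with an edgeR adjusted p of 0.0047. After treatment the libraries were at 114, 95.7 and 115.8 TPM in STHdhQ7 cells and at 162, 159 and 162 TPM in STHdhQ111 cells. These too did not overlap in TPM, but the log2 fold change on the TMM scale was 0.15 ± 0.15 and did not pass (edgeR adjusted p = 0.47). It was 0.31 without Q7-T replicate 2 (edgeR adjusted p = 0.061). On the TPM scale, before any rescaling of libraries, the same difference was 0.57 (limma adjusted p = 0.0043).

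The scale matters here because TPM and TMM (the trimmed mean of M values, the library scaling of the test) set the libraries differently. The median log2 fold change of all genes tested was -0.02 on the TMM scale in Q111-C vs. Q7-C and 0.27 on the TPM scale, and in Q111-T vs. Q7-T the medians were -0.03 and 0.34. A TPM ratio between the lines therefore reads higher for STHdhQ111 cells than the tested fold change does. For the treatment responses the shift was the other way, with medians on the TPM scale of -0.16 in Q7-T vs. Q7-C and -0.10 in Q111-T vs. Q111-C.

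Ctsz encodes cathepsin Z (also called X), a carboxypeptidase (ENSMUSG00000016256, chr2:174427493-174439039, minus strand), and shows this shift plainly. Its level was 183, 176 and 165 TPM in the Q7-C libraries and 226, 221 and 222 TPM in those of Q111-C, without overlap. Its log2 fold change on the TMM scale was 0.01 ± 0.28 (SE), with an edgeR adjusted p of 0.99. In treated cells it was at 189, 254 and 195 TPM in STHdhQ7 cells and at 244, 233 and 244 TPM in STHdhQ111 cells. These groups overlapped through Q7-T replicate 2, and the log2 fold change of -0.32 ± 0.28 did not pass (edgeR adjusted p = 0.38). It was 0.15 without that library and 0.19 on the TPM scale, so no direction can be given.

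**Figure D2:**
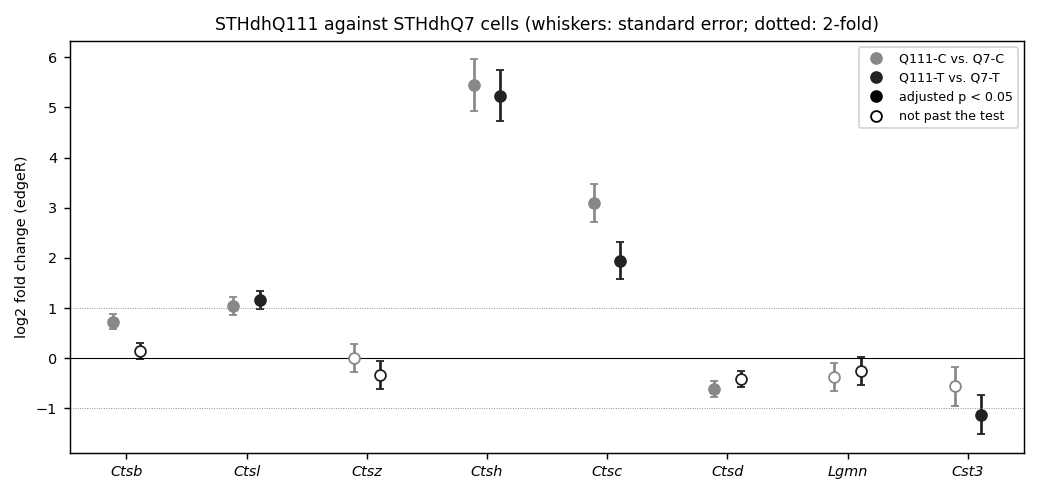
Log2 fold change of STHdhQ111 against STHdhQ7 cells from edgeR on the TMM scale (y axis) for the 8 genes tested (x axis), untreated in grey and treated in black, with whiskers for the SE and dotted lines at a 2-fold difference. Filled points have an adjusted p under 0.05. Ctsh and Ctsc lie farthest above 0 in both comparisons, and Cst3 in treated cells lies farthest below.

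Ctsd encodes cathepsin D, the main aspartic protease of the lysosome (ENSMUSG00000007891, chr7:142375911-142388038, minus strand), and it had the highest TPM of the 10 genes in every group. Its level was 473, 499 and 485 TPM in the Q7-C libraries and 388, 414 and 400.2 TPM in those of Q111-C. All Q111-C libraries were below all Q7-C libraries. The log2 fold change was -0.61 ± 0.16 (SE), with an edgeR adjusted p of 0.017. On the TPM scale it was -0.28 (limma adjusted p = 0.19). The adjusted p from edgeR was 0.055 without Q7-C replicate 1, and 0.074, 0.069 and 0.077 without Q111-C replicates 1, 2 and 3. After treatment the lines overlapped, at 486, 397 and 518 TPM in Q7-T and at 536, 396 and 486 TPM in Q111-T. The log2 fold change of -0.41 ± 0.16 in treated cells did not pass with edgeR (adjusted p = 0.064) and passed with DESeq2 (-0.41, adjusted p = 0.037), while on the TPM scale it was 0.01. It also passed with edgeR without Q7-C replicate 1 (-0.41, adjusted p = 0.035) and without Q7-T replicate 1 (-0.51, adjusted p = 0.035), but not without Q7-T replicate 2 (-0.27, adjusted p = 0.15). Ctsd overlaps Gm49369 on the same strand, so its counts carry the same limit as those of Ctsl.

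Legumain (ENSMUSG00000021190, chr12:102394084-102439813, minus strand) cuts after asparagine and helps to mature other cathepsins. Its level was 72.6, 71.4 and 67.7 TPM in the Q7-C libraries and 61.2, 76.8 and 69.0 TPM in those of Q111-C, and the groups overlapped. In Q7-T the libraries were at 73.7, 18.2 and 57.3 TPM, and in Q111-T at 53.8, 51.5 and 46.8 TPM. The value of Q7-T replicate 2 was 0.278 of the mean of the other Q7-T libraries. The difference between the lines did not pass in untreated cells (-0.38 ± 0.28 SE, edgeR adjusted p = 0.39) or in treated cells (-0.25 ± 0.28, edgeR adjusted p = 0.51). Without Q7-T replicate 2 the difference in treated cells was -0.53 (edgeR adjusted p = 0.044).

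Cystatin C (Cst3, ENSMUSG00000027447, chr2:148871722-148875576, minus strand) is the inhibitor among the 10 genes. Its level was 280, 205 and 193 TPM in the Q7-C libraries and 203, 199.9 and 194 TPM in those of Q111-C, which overlapped (log2 fold change -0.56 ± 0.38 SE, edgeR adjusted p = 0.36). Treated libraries were at 181, 309 and 182 TPM in STHdhQ7 cells and at 153, 155 and 140 TPM in STHdhQ111 cells. All Q111-T libraries were below all Q7-T libraries. The log2 fold change was -1.12 ± 0.39 and passed narrowly (edgeR adjusted p = 0.040). This call rests on few libraries. Without Q7-T replicate 2 the log2 fold change was -0.45 (edgeR adjusted p = 0.20). Leaving out Q7-C replicate 2, any Q111-C library or any Q111-T library also gave an edgeR adjusted p between 0.052 and 0.12. With the replicate number as a block the adjusted p was 0.054, and with limma on log2(TPM + 0.5) it was 0.066.

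In Q111-T vs. Q7-T as a whole, 4 of the 8 genes tested passed, 3 higher (Ctsc, Ctsh and Ctsl) and 1 lower (Cst3), where 19.8% of all genes tested were called higher and 18.7% lower. The background in this comparison was 38.4% of all genes tested, so 4 of 8 is near the share of all genes. All 4 also had at least a 2-fold difference and were thus DEGs, as were 24.5% of all genes tested. In Q111-C vs. Q7-C there were 3 such DEGs (Ctsc, Ctsh and Ctsl), against 15.2%. Among the 6 genes that reached the filter in both lines, 2 passed in treated cells (Ctsl and Cst3), and in untreated cells 1 was a DEG (Ctsl). These counts are near the 38.4% and 15.2% over all genes tested. Shares over only the genes that reached the filter in both lines were not computed. The groups did not overlap in TPM for 6 of the 8 genes in untreated cells, and this held for 51.4% of all genes. For treated cells it was 5 of 8, against 46.3%. The median log2 fold change of the 8 genes was 0.37 in untreated and -0.05 in treated cells, with Ctsc and Ctsh included. A median of the other 6 was not taken. In untreated cells Cst3, Ctsd and Lgmn were at -0.56, -0.61 and -0.38. Ctsz was at 0.01, Ctsb at 0.73 and Ctsl at 1.04. In treated cells Cst3, Ctsd, Ctsz and Lgmn were at -1.12, -0.41, -0.32 and -0.25, and Ctsb and Ctsl at 0.15 and 1.16.

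The levels of the 10 genes can be set in order by TPM, which is per length. In Q7-C the order was Ctsd, Cst3, Ctsz, Ctsb, Lgmn and Ctsl, and no neighbouring genes in this order overlapped between libraries. Ctsh, Ctsk, Ctsc and Ctss followed below 0.4 TPM, with Ctsh and Ctsk, and Ctsk and Ctsc, overlapping. In Q111-C the order was Ctsd, Ctsz, Cst3, Ctsb, Ctsl, Lgmn, Ctsh, Ctsc, Ctsk and Ctss, with overlap between Cst3 and Ctsb and between Ctsk and Ctss. This order depends on the length used. Taken relative to Ctsz, the counts and TPM in the table imply lengths equal to all annotated exons for the other 5 abundant genes. These exons come to 6489 bases for Ctsl, while its shortest principal transcript has 1971. Rescaled to principal transcripts, Ctsl was at 558 ± 23.0 TPM (SD, n = 3) in Q111-C, above Ctsd at 443 ± 14.5, while in Q7-C it was at 215 ± 7.54 and below Ctsd at 537 ± 14.7. Comparisons of 1 gene between groups do not change with this choice.

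The summed TPM of the 7 cysteine cathepsins was 333 ± 8.92 (SD, n = 3) in untreated and 386 ± 2.25 in treated STHdhQ7 cells. STHdhQ111 cells had sums of 605 ± 11.6 untreated and 604 ± 6.99 treated. Set against the inhibitor, this sum was 1.52 ± 0.301 times the TPM of Cst3 in untreated and 1.83 ± 0.511 times in treated STHdhQ7 cells. Single libraries pulled both means down: replicate 1 in Q7-C (1.17, against 1.68 and 1.71) and replicate 2 in Q7-T (1.24, against 2.14 and 2.11). The ratios for STHdhQ111 cells were 3.04 ± 0.118 untreated and 4.04 ± 0.229 treated. Every STHdhQ111 library had a higher ratio than every STHdhQ7 library, the lowest being 2.92 and the highest STHdhQ7 value 2.14. The ratio to Ctsd was 0.686 ± 0.00762 in Q7-C and 1.51 ± 0.0334 in Q111-C, and with treatment it was 0.836 ± 0.116 and 1.30 ± 0.19. In Q7-T replicate 2 was the high one, at 0.966 against 0.798 and 0.743. These ratios do not depend on the scaling of a library but do depend on the gene lengths used. Rescaled to principal transcripts, the ratio to Cst3 was 1.58 ± 0.328 untreated and 1.85 ± 0.677 treated (STHdhQ7) and 3.69 ± 0.175 and 4.99 ± 0.221 (STHdhQ111). The rescaled ratio to Ctsd was 0.949 and 1.09 (STHdhQ7) and 2.44 and 2.13 (STHdhQ111). They describe transcripts, and protease activity was not measured in these files.

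**Figure D3:**
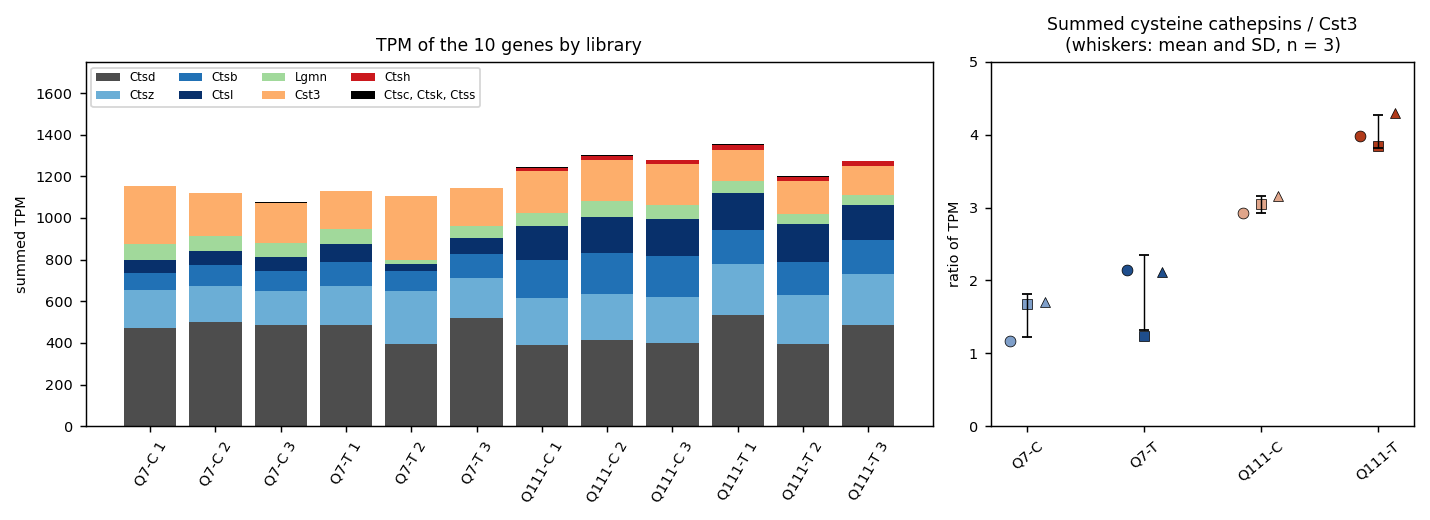
Left, TPM of the 10 genes stacked by library (y axis, summed TPM from 0; x axis, group and replicate). Right, the ratio of the summed TPM of the 7 cysteine cathepsins to that of Cst3 by group, with symbols for replicates 1 (circle), 2 (square) and 3 (triangle) and whiskers for the mean and SD of 3 libraries. The STHdhQ111 libraries lie at 2.92 or above and the STHdhQ7 libraries at 2.14 or below.

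The response to IFNγ/LPS was tested within each line. In Q7-T vs. Q7-C 0 of the 8 genes passed with edgeR, DESeq2 or limma, against a background of 5.35% of all genes tested with edgeR. At an unadjusted p under 0.05, edgeR called 2 of the 8, where 15.4% of all genes tested were below that p. These were Ctsb (0.43 ± 0.15 SE, adjusted p = 0.17) and Ctsc (1.04 ± 0.36, adjusted p = 0.16). Their groups overlapped in TPM. Only Ctsz was above its untreated range in every Q7-T library, which held for 1 of 8 genes against 14.4% of all genes with groups that did not overlap, and its log2 fold change was 0.54 ± 0.28 (edgeR adjusted p = 0.40). Without Q7-T replicate 2 the log2 fold changes were 0.08 for Ctsz, 0.27 for Ctsb, 0.53 for Ctsc, 0.22 for Ctsl, 0.00032 for Ctsd, -0.17 for Lgmn, -0.32 for Ctsh and -0.40 for Cst3.

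In Q111-T vs. Q111-C 0 of the 8 genes passed with edgeR, DESeq2 or limma, against a background of 18.7%, and 0 had an unadjusted p under 0.05 with any of the 3 tools, where 29.7% (edgeR), 32.4% (DESeq2) and 28.6% (limma) of all genes tested did. Of the 8, 5 of the 8 did not overlap in TPM between treated and untreated libraries, as did 49.6% of all genes. Ctsh and Ctsz were above their untreated range, and Ctsb, Lgmn and Cst3 below it. The log2 fold changes were 0.45 ± 0.41 (SE) for Ctsh, 0.21 ± 0.28 for Ctsz, -0.15 ± 0.15 for Ctsb, -0.33 ± 0.28 for Lgmn and -0.30 ± 0.38 for Cst3. When only the libraries of these groups were fitted, Ctsh (0.45, edgeR adjusted p = 0.0072) and Ctsd (0.33, edgeR adjusted p = 0.026) passed, as did 5474 of all 16127 genes, so 2 of 8 is no more than the share of all genes. With Q7-T replicate 2 left out of the fit of all groups, Ctsh passed at 0.44 (edgeR adjusted p = 0.030), where 27.2% of all genes passed.

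**Figure D4:**
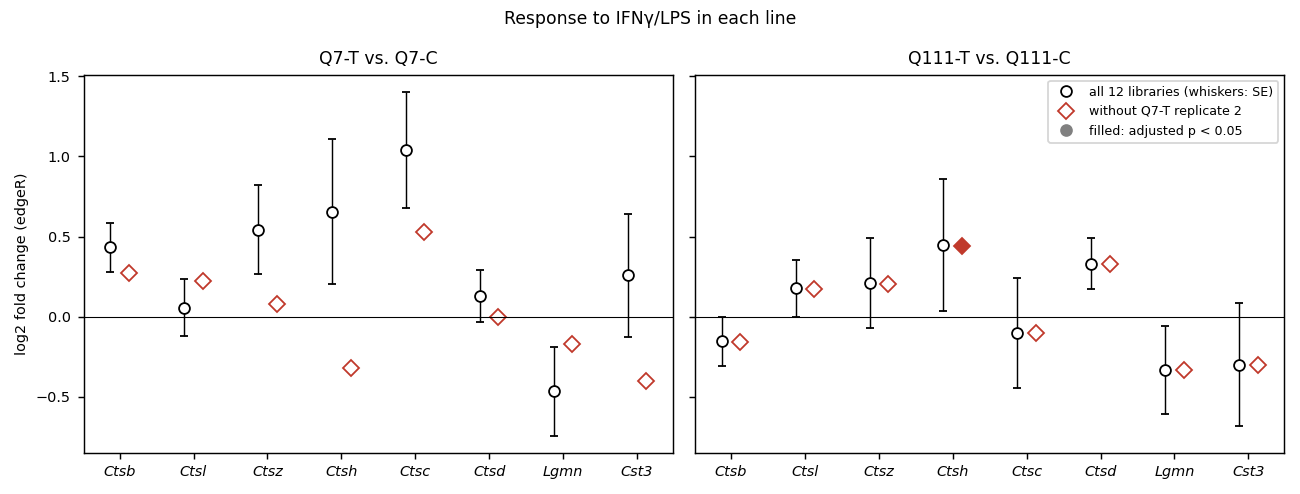
Log2 fold change of treated against untreated cells from edgeR (y axis) for the 8 genes tested (x axis), in STHdhQ7 cells (left) and STHdhQ111 cells (right), from all 12 libraries (circles, whiskers for the SE) and without Q7-T replicate 2 (diamonds). In STHdhQ7 cells Ctsh moves from 0.66 to -0.32 and Cst3 from 0.26 to -0.40 when that library is left out, and the filled diamond, Ctsh in STHdhQ111 cells, is the only value with an adjusted p under 0.05.

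Whether the lines responded differently was tested by the interaction of line and treatment. With edgeR, DESeq2 and limma 0 of the 8 genes passed, against a background of 5.7% of all genes tested with edgeR. At an unadjusted p under 0.05 edgeR called Ctsb (-0.59 ± 0.22 SE, adjusted p = 0.16) and Ctsc (-1.14 ± 0.50, adjusted p = 0.23), where 19.8% of all genes tested were below that p. Ctsh was at -0.21 ± 0.61 with all libraries and at 0.76 without Q7-T replicate 2 (edgeR adjusted p = 0.060).

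Ctss and Ctsk remained near the limit of detection. Ctss encodes cathepsin S, the endopeptidase that degrades the invariant chain of class II molecules in antigen-presenting cells (ENSMUSG00000038642, chr3:95526786-95556403, plus strand). It had no count in any Q7-C library, which allows up to 0.240 TPM (a floor of 3 read pairs per library, taken as 12 estimated counts, and covering counting error only). It was at 0, 0.0759 and 0 TPM in Q7-T and at 0, 0.164 and 0.0687 TPM in Q111-C, or no more than 8 estimated counts in a library. In Q111-T it was at 0.637, 0.259 and 0.834 TPM, or 32, 12 and 32 estimated counts. All Q111-T libraries were above all others, which by itself fixes an exact permutation test of 3 libraries against 3 at its smallest p of 0.1 (two-sided). Groups did not overlap for 49.6% of all genes tested in Q111-T vs. Q111-C and for 46.3% in Q111-T vs. Q7-T. Q111-T replicate 2 was at the floor of 12 counts, which stands for up to 0.274 TPM in Q7-T and 0.283 TPM in Q111-C. Its order against those groups is therefore not resolved. Hmgb1-ps5 overlaps Ctss on the same strand.

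The promoter of Ctss is shown because it alone among the promoters of these genes held the letters of the interferon-stimulated response element, the site bound by interferon-activated factors (GAAA, any 2 bases, GAAA). Promoters run from 250 bases before to 50 after a RefSeq start site on GRCm38.p6, and 8 of the 10 genes have an entry. These letters, searched on both strands, occur in 3.44% of 32851 promoters. The 250 bases before the start of Ctss (chr3:95526536-95526785, plus strand) are given with the match in capitals, which begins 21 bases before the start.
Ctss: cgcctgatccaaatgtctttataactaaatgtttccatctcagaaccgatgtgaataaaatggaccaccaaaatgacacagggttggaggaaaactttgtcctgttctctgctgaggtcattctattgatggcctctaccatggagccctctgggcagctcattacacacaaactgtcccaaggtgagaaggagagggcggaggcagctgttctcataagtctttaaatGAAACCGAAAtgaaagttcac
A match is a description of letters and not evidence of binding. The promoter of Ctsc held a match to TTCNNNGAA, the letters of the gamma-activated site, which occur in 8.30% of promoters. It is shown in 30 bases (chr7:88277837-88277866, plus strand) and begins 236 bases before the start.
Ctsc: tcagctttggcgTTCCTTGAAaggcagagg

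Ctsk encodes cathepsin K, the collagenase of osteoclasts (ENSMUSG00000028111, chr3:95499256-95509362, plus strand). It lay between 0 and 0.436 TPM in the 12 libraries, on at most 23 estimated counts, and all groups overlapped. Of 5 osteoclast markers listed, 4 were in the table, and their summed TPM was 0.0782 to 1.12 over all libraries.

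Markers of macrophages and microglia, cells rich in cathepsins, were examined beside the line differences. Of 12 listed, 9 were in the table and 2 were expressed at a level that could be tested, Cd68 and Tmem119. Ptprc and Adgre1 of this list were at no more than 0.0064 and 0.0463 TPM, and Itgam reached 0.0762 TPM. The summed TPM of the 9 was 18.1 to 20.8 in untreated and 12.1 to 18.5 in treated STHdhQ7 cells, and STHdhQ111 cells had 32.1 to 37.1 untreated and 46.1 to 62.6 treated. Most of this was Tmem119 and Cd68. Cd68, a lysosomal membrane protein, was at 48.8 ± 8.58 TPM (SD, n = 3) in Q111-T and 15.2 ± 1.19 in Q111-C, and it rose with treatment in STHdhQ111 cells (log2 fold change 1.81, edgeR adjusted p = 0.0053) and did not pass in STHdhQ7 cells (1.01, edgeR adjusted p = 0.19). Tmem119 fell with treatment in both lines, by 1.78 (STHdhQ7) and 1.77 (STHdhQ111). Between the lines neither passed in untreated cells with all libraries, with log2 fold changes of 0.75 (Cd68) and 0.25 (Tmem119), and Cd68 was higher in Q111-T vs. Q7-T (1.55, edgeR adjusted p = 0.0069). Without Q7-T replicate 2 Cd68 also passed in Q111-C vs. Q7-C (0.77, edgeR adjusted p = 0.035) and in the interaction (1.36, edgeR adjusted p = 0.045).

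Other genes of the same system were compared in the same fit. Of all genes tested, 11.1% were higher and 11.6% lower in Q111-C vs. Q7-C, and 19.8% and 18.7% in Q111-T vs. Q7-T. Of 14 other cathepsins listed, 5 were in the table and 4 were tested. In Q111-C vs. Q7-C 1 was higher and 2 were lower, and in Q111-T vs. Q7-T 2 were higher and 1 was lower. Ctso, a cysteine cathepsin of little known function, was higher in STHdhQ111 cells (1.92 ± 0.23 SE untreated, 2.45 ± 0.23 treated) and rose with treatment in both lines (0.87 and 1.40), although its STHdhQ7 response did not pass without Q7-T replicate 2 (0.83, edgeR adjusted p = 0.073). Its level was 0.846 ± 0.262 TPM in Q7-C and reached 9.53 ± 1.13 TPM in Q111-T. Ctsw, a cathepsin of cytotoxic lymphocytes, was lower (-3.37 and -2.93). Ctsf was lower in untreated STHdhQ111 cells (-0.80) and higher in treated ones (0.84). It rose by 1.63 in STHdhQ111 cells, and its interaction passed (1.64 ± 0.33, edgeR adjusted p = 0.014). Ctsa did not pass in any comparison.

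Among cystatins and other cathepsin inhibitors, 5 of 22 listed genes were tested. Cst6, which encodes cystatin M/E, an inhibitor of legumain and of cathepsin L, spanned 6.71 to 9.83 TPM over the Q7-C libraries and 0.0843 to 0.44 TPM over those of Q111-C (log2 fold change -5.59 ± 0.85 SE, edgeR adjusted p = 0.00055). Fetub, a secreted cystatin-family protein, was higher in STHdhQ111 cells (3.85 and 4.79). Cstb, the cytosolic inhibitor of cathepsins, did not pass in any comparison and lay between 184 and 423 TPM. Serpinb9 rose with treatment in both lines, by 2.30 and 2.32, and its interaction did not pass (0.02, edgeR adjusted p = 0.98).

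Of 6 other lysosomal peptidases tested, 3 were higher in Q111-C vs. Q7-C and 5 were higher and 1 lower in Q111-T vs. Q7-T. The largest difference was in Cpq, a carboxypeptidase (1.38 untreated, 2.67 treated). Of 32 lysosomal glycosidases, lipases and sulfatases tested, 8 were higher and 3 lower in untreated cells, and 13 higher and 1 lower in treated cells, with Manba, the beta-mannosidase, at 2.38 and 2.68. Of 26 genes of the lysosomal membrane and its acidification, 2 were higher and 2 lower in untreated cells, and 8 higher and 2 lower in treated cells. Cln3, mutated in juvenile Batten disease, was 10.1-fold higher in untreated cells. Of 14 genes for sorting to lysosomes, 2 were higher and 3 lower in untreated cells, and 1 higher and 3 lower in treated cells. The sorting receptors Sorl1 and Sort1 were lower in untreated cells (-4.41 and -2.63). The KEGG lysosome pathway without the 10 genes had 111 genes in the table, 10 of which were not tested. Of those tested, 22 (21.8%) were higher and 9 (8.91%) lower in untreated cells, against 11.1% and 11.6% of all genes, with a median log2 fold change of 0.14 against -0.02. In treated cells 34 (33.7%) were higher and 9 (8.91%) lower, against 19.8% and 18.7%. The counts lower in untreated cells without Q7-T replicate 2 were 15 for this pathway, 5 for glycosidases, lipases and sulfatases and 5 for the membrane list, with 16% of all genes lower. The membrane list then had 3 lower in treated cells, and the sorting list 3 higher in untreated cells.

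Transcription factors of the Tfeb family switch on lysosomal genes through the letters CACGTG. Tfeb was at 16.2 ± 1.30 TPM (SD, n = 3) in untreated and 8.78 ± 1.77 TPM in treated STHdhQ7 cells. STHdhQ111 cells had 8.64 ± 0.482 TPM untreated and 3.06 ± 0.164 TPM treated. It was lower in STHdhQ111 cells (-1.26 and -1.91) and fell with treatment in both lines, with log2 fold changes of -0.74 in STHdhQ7 cells (edgeR adjusted p = 0.042) and -1.39 in STHdhQ111 cells (edgeR adjusted p = 0.00032). Mitf was higher in STHdhQ111 cells (1.23 and 1.81), with 0.51 ± 0.178 TPM (Q7-C) against 1.46 ± 0.248 TPM (Q111-C). The letters occur in 7.15% of promoters, and in those of Ctsd, Ctsl and Lgmn among the 8 genes with an entry. They are shown in 30 bases each, 5′ to 3′ on the strand of the gene, with the match in capitals. Ctsd held 2 matches, 245 and 98 bases before the start, at chr7:142388048-142388077 and chr7:142387908-142387937, both on the minus strand.
Ctsd, first: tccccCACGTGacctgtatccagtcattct
Ctsd, second: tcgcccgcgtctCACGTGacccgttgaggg
Ctsl held 1 match 236 bases before the start (chr13:64370739-64370768, minus strand). In Lgmn, 1 of the promoters held it 49 bases before the start (chr12:102439124-102439153, minus strand). The other Lgmn promoter (chr12:102439679-102439978) held no match. Starts here are RefSeq start sites, and the gene spans given above reach farther 5′. By those spans, the Ctsl match, the Lgmn match and the second Ctsd match lie inside the gene.
Ctsl: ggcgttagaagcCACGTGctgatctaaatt
Lgmn: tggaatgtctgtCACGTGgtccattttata

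Cathepsin S and legumain work beside class II molecules. Of 9 partners in class II antigen processing, 8 rose in Q7-T vs. Q7-C and 4 in Q111-T vs. Q111-C, where 3.61% and 11.3% of all genes rose. The counts were 5 and 6 without Q7-T replicate 2, against 4.11% and 15.1% of all genes. The invariant chain gene Cd74 rose by 3.93 (STHdhQ7) and 3.75 (STHdhQ111), from 2.75 ± 0.709 to 35.2 ± 10.6 TPM (SD, n = 3) and from 1.46 ± 0.42 to 18.4 ± 1.69 TPM. Ciita, the activator of class II genes, rose by 7.04 and 5.83. Lgmn did not pass in either line, and Ctss stayed below 1 TPM in all libraries.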

How the data were processed

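Stranded poly(A) libraries were read as pairs. Per the methods and the submitters' processing notes, Cutadapt, HISAT2 (GRCm38) and StringTie were used before the authors deposited 1 table of TPM and estimated counts per gene and library. TPM sum to 688352 to 719623 in a library. Low counts favour multiples of 4, so 1 read pair was taken as 4 counts and precision is below what the totals imply. Libraries were grouped by their labels.

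Estimated counts were rounded and tested with edgeR 4.0.16 (quasi-likelihood, TMM, one fit of 12 libraries, R 4.3.3), keeping genes that reached 0.5 TPM in 3 or more libraries, with Benjamini-Hochberg adjustment over 16127 genes. The SE is the absolute log2 fold change over the square root of F. Genes passed at an adjusted p under 0.05, and DEGs also differed 2-fold or more. Alternatives were DESeq2 1.42.0, limma 3.58.1 on log2(TPM + 0.5), other filters, scalings and pseudocounts, counts divided by 4, a replicate block, smaller fits and each library left out. Counts over the other lists without Q7-T replicate 2 were added after seeing the data. Comparisons that share a group share its libraries.

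All 10 genes were named, with up to 3 genes per comparison from each other list, those with the largest absolute log2 fold change among genes that passed, treatment checks, and the 3 genes nearest in pattern to Cst3, Ctsc and Ctsh. Ctsa, Cstb and the marker genes given with values lie outside this rule and were picked with their values known. The 10 genes and the lists were chosen with earlier results of these data known. Promoters are from RefSeq (GRCm38.p6). GENCODE M21, which holds 29344 of the identifiers, gave lengths and overlaps. Replicates differed by more than counting noise (smallest chi-square per degree of freedom 5.06).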

Additional observations from a re-analysis of the deposited data

How the results depend on the processing

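Of 952 alternative values for the 40 log2 fold changes of the 8 genes, 882 kept direction and side of the threshold, 22 lost a call, 10 gained one and 38 turned direction. None of the 38 had an adjusted p under 0.05 before or after turning, and the cause was not tested. With limma on log2(TPM + 0.5), + 0.1 and + 1, the turned values for Q111-T vs. Q7-T were 0.0146, 0.0146 and 0.0146 for Ctsd, 0.188, 0.189 and 0.188 for Ctsz and 0.25, 0.25 and 0.24 for Lgmn. Those for Q7-T vs. Q7-C were -0.0395, -0.0396 and -0.0394 for Cst3, -0.0654, -0.0655 and -0.0653 for Ctsd and -0.15, -0.15 and -0.14 for Ctsl. The interaction of Ctsh was 0.24, 0.20 and 0.26, and 0.19 with limma on rescaled TPM. Leaving out single libraries, Ctsz ranged from -0.0801 to 0.22 in Q111-C vs. Q7-C. For the treated lines the ranges were -0.53 to 0.15 for Ctsz and -0.53 to 0.0218 for Lgmn. The STHdhQ7 response ranged from -0.40 to 0.65 for Cst3, from -0.32 to 1.05 for Ctsh and from -0.0660 to 0.22 for Ctsl. The interaction ranged from -0.95 to 0.10 for Cst3, from -0.60 to 0.76 for Ctsh, from -0.0489 to 0.24 for Ctsl, from -0.55 to 0.13 for Ctsz and from -0.17 to 0.40 for Lgmn. Genes passing ranged from 4 to 5 and from 3 to 5 for the untreated and treated lines, from 0 to 1 for the STHdhQ111 response (1 without Q7-T replicate 2) and stayed at 0 for the STHdhQ7 response and the interaction. Fitting only the groups compared, 2 passed for the STHdhQ111 response. In Q111-T vs. Q7-T, 4 DEGs became 2 with limma on log2(TPM + 1). Over all genes, 862 passed for the STHdhQ7 response (397 from its own groups, 1514 with DESeq2), 3010 for the STHdhQ111 response (5474 from its own groups) and 919 for the interaction (534 without Q111-C replicate 2, 1970 with DESeq2). The replicate numbers did not pair the libraries: correlations of deviations ran from -0.416 to 0.303 over 18 same-numbered pairs, 6 of them over 0.1, and 1 library was best matched by its own number. With the replicate block the log2 fold change of Cst3 in treated cells was -1.05 (edgeR adjusted p = 0.054). Depth limits Ctss, Ctsk and the STHdhQ7 values of Ctsh and Ctsc.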

Other observations

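The genes whose levels over the 12 libraries were nearest to those of Ctsh, by the root mean square difference of log2(TPM + 0.5) centred per gene, were Bhlhb9 (0.228), Zic1 (0.234) and Mpg (0.260). Mpg averaged 0.299 TPM in Q7-C, against 16.7 TPM for Q111-C. For Ctsc they were Spata2l (0.149), Bmp7 (0.154) and Cldn34c1 (0.162), and for Cst3 they were Abhd17a (0.0772), Exosc5 (0.0786) and Elof1 (0.0863). These are descriptions over libraries that share their groups.

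The 8 nearest tested genes around Ctsh on chromosome 9 were examined after its values were seen. On either side, untreated STHdhQ111 cells differed from STHdhQ7 cells by 0.91 on the log2 scale for Tmed3 (edgeR adjusted p = 0.037) and by 0.13 for Morf4l1 (0.54). Tbc1d2b differed by 0.82 (0.017), and the other 5 did not pass. In treated cells, Gm10634 (5.03, edgeR adjusted p = 0.0075), Gm37614 (-2.11, 0.046) and Tbc1d2b (0.82, 0.012) passed. Gm10634 was at 0.783 TPM in Q111-T and below 0.03 TPM in the other groups, so it reached the filter only through Q111-T. Of all genes tested, 22.7% passed between the untreated and 38.4% between the treated lines.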
